A study of Mus musculus with 6 samples.

Results

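This account covers 9 mouse genes of osteoclast formation and cell fusion, namely Tnfrsf11a, Oscar, Nfatc1, Acp5, Ctsk, Mmp9, Dcstamp, Ocstamp and Spp1, taken by gene symbol from tables of 24054 genes. All 9 were found and had at least 1 count, and 7 passed the filter on low counts; Oscar and Ocstamp did not. RNA was sequenced from bone marrow-derived macrophages in 4 groups: Kindlin3-integrin mutant given oxidised low-density lipoprotein (oxLDL; 2 libraries), mutant untreated (2), C57BL/6 wild type given oxLDL (1) and wild type untreated (1). The mutant mice are on a C57BL/6 background, and their ages and the kind of mutation are not given in the labels, whose titles call the mutant samples KI. All cells had 7 days of culture in L929-conditioned medium, a source of macrophage colony-stimulating factor, and treated cells had 50 µg/ml oxLDL for 24 hours. Kindlin-3 is a cytoplasmic activator of integrins in blood cells, and the series asks how the mutation changes the macrophage response to oxLDL.

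Osteoclasts are bone-resorbing giant cells that form when macrophage precursors fuse. The ligand RANKL binds the receptor RANK, the Tnfrsf11a product, and immune receptors such as OSCAR add a second signal; together they induce NFATc1, the transcription factor that switches on the osteoclast programme. Acp5 (tartrate-resistant acid phosphatase), Ctsk (cathepsin K) and Mmp9 (a gelatinase) encode effectors of matrix breakdown, Dcstamp and Ocstamp encode membrane proteins needed for fusion, and Spp1 encodes osteopontin, a secreted ligand of integrins made by osteoclasts and by macrophages in atherosclerosis.

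Counts assigned to genes ranged over 11281692 to 24273551 a library, and levels are given as CPM, the counts a library would give if scaled to a common total, after trimmed mean of M-values (TMM) scaling. Levels are compared only between libraries, never between genes, since they are not per gene length. A count of 3, taken as the floor of detection, corresponds to 0.122 to 0.265 CPM. Fermt3, the kindlin-3 gene, measured 146 and 153 CPM in mutant oxLDL, 241 and 249 in mutant untreated, 188 in wild-type oxLDL and 403 CPM in wild-type untreated cells; with the kind of mutation unknown, this level does not check the genotype labels. All 11 macrophage markers found in the table (among them Csf1r, Cd68, Lyz2 and Emr1) were present in every library, with summed levels of 14291 to 34920.1 CPM, most of it Lyz2 in the 4 mutant libraries. The summed level of 14 pancreatic enzyme and hormone genes was 187 and 149 CPM in mutant oxLDL, 3.09 and 3.47 in mutant untreated, 1.79 in wild-type oxLDL and 253 CPM in wild-type untreated cells. All 14 had counts in the 3 libraries with high sums, and 12 or 13 were at 0 in each of the others. The labels do not say whether the replicates are separate animals or cultures; the p-values reflect the spread among these libraries alone, which may be technical. In bulk RNA, fewer cells of a type and less RNA per cell cannot be told apart.

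**Figure D1:**
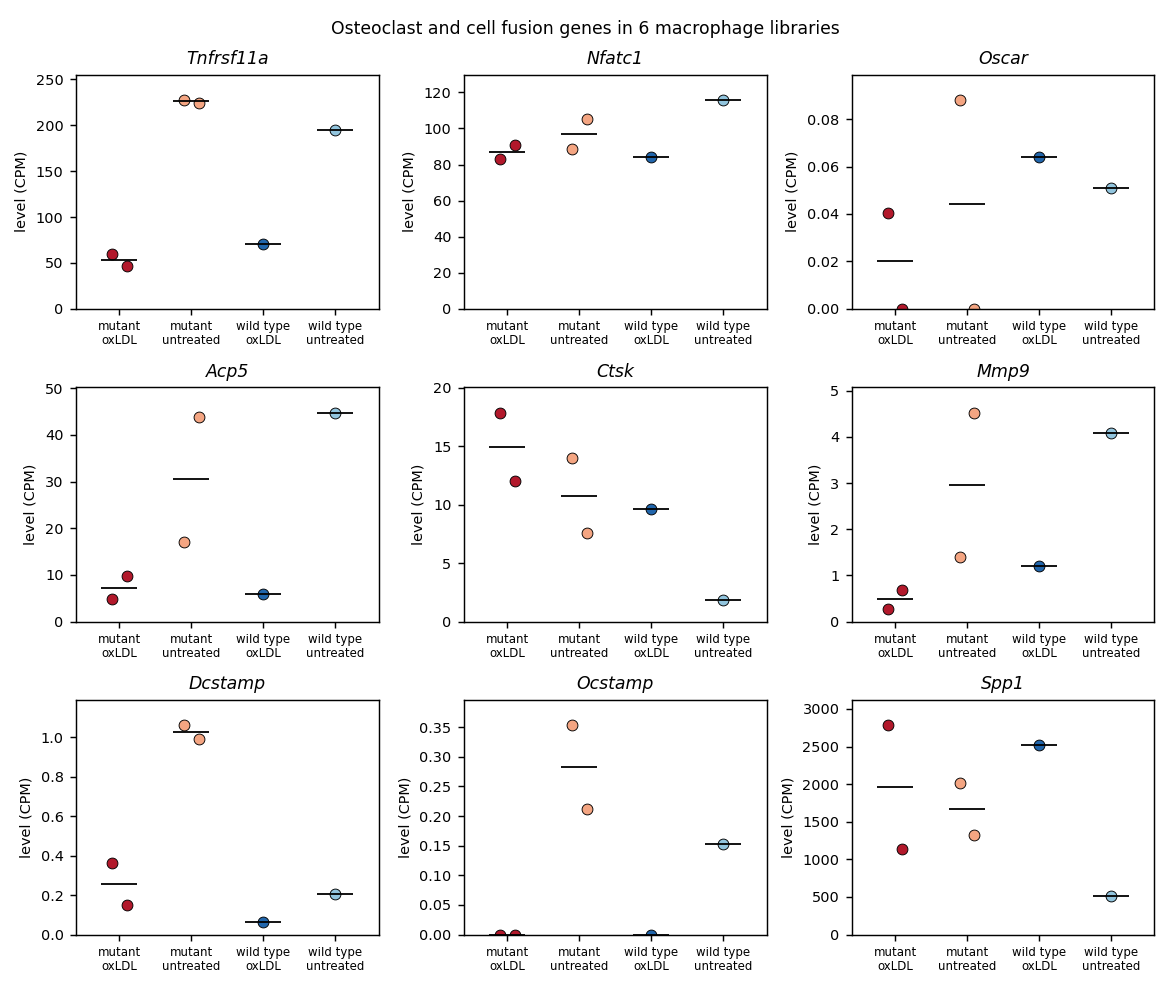
Level of each of the 9 genes (vertical axis, CPM, linear from 0) in the 6 libraries; each point is 1 library and each bar the mean of its group. For Tnfrsf11a, Acp5 and Mmp9 the 3 oxLDL libraries lie below the 3 untreated ones, whereas for Ctsk and Spp1 the wild-type untreated library has the lowest point.

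The first comparison asked what oxLDL did to these genes. RANK, the phosphatase and the gelatinase fell: Tnfrsf11a dropped 4.23-fold, Acp5 4.26-fold and Mmp9 6.25-fold in mutant cells. None of the 7 tested genes rose there, and Nfatc1, Ctsk, Spp1 and Dcstamp did not pass. With edgeR's quasi-likelihood test at a false discovery rate of 0.05, 3 of the 7 were therefore called lower in mutant cells, where 19.1% of all 12689 genes tested were called lower and 16.5% higher. With both genotypes in an additive model, 4 of 7 were called lower (the same 3 and Dcstamp), against 21.4% of all genes. Macrophage markers moved in the same comparison: in the mutant 6 of 11 were called lower with oxLDL and 2 higher. Of 3 lower markers singled out after their values were seen, Emr1 had 823 and 816 CPM with oxLDL against 4426 and 4418 CPM without. Fcgr1 had 23.7 and 16.1 against 219 and 165 CPM, and Cd14 44.6 and 52.1 against 296 and 279 CPM. Cd68 (2136 and 1884 against 1337 and 966 CPM) and Mertk (125 and 164 against 86 and 65.3 CPM), also singled out, were higher with oxLDL. The part of the marker changes in the members' changes was not tested. All 14 pancreatic genes were called higher with oxLDL in the mutant. They summed to 187 and 149 CPM with oxLDL against 3.09 and 3.47 CPM without. In wild type the sums went the other way, 1.79 CPM with oxLDL and 253 CPM without. The part of such RNA in the members' changes was not tested either.

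Tnfrsf11a, the receptor gene at the head of the pathway, measured 60.0 and 46.8 CPM in mutant oxLDL cells, against 228 and 224 CPM in mutant untreated cells. The wild-type oxLDL library had 70.6 CPM and the wild-type untreated library 195 CPM. All 3 oxLDL libraries were thus low and all 3 untreated libraries high, in either genotype, with no overlap. The means were 53.4 ± 9.35 CPM with oxLDL and 226 ± 3.27 CPM without in the mutant (SD, n = 2 each), a log2 fold change of -2.08 ± 0.14 (SE; edgeR adjusted p = 0.000442). Across genotypes the log2 fold change was -1.88 ± 0.16 (adjusted p = 0.000397). Both calls held under all 12 alternatives run for each, which are not independent checks. Leaving out a wild-type library keeps the mutant libraries as they were, and across genotypes it leaves the mutant comparison itself.

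Oscar, the co-receptor gene, was at or near the limit of detection. Its expected counts were 1 and 0 in mutant oxLDL, 1 and 0 in mutant untreated, 1 in wild-type oxLDL and 1 in wild-type untreated cells. Every library lay below the floor of 3 counts, so no fold change is given for it. The RANKL gene Tnfsf11, which stromal cells and lymphocytes supply in bone, had 1 count over all 6 libraries, in wild-type oxLDL cells. Its decoy receptor gene Tnfrsf11b had 5 counts over the 6 libraries. Both were singled out after their values were seen.

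Nfatc1, by contrast, was well detected in every library. It measured 83.1 and 90.6 CPM in mutant oxLDL cells, against 88.8 and 105 CPM in mutant untreated cells. The wild-type libraries had 84.4 CPM with oxLDL and 116 CPM without. The oxLDL and untreated ranges overlapped in the mutant, and the log2 fold change was -0.16 ± 0.12 there (edgeR adjusted p = 0.341) and -0.26 ± 0.11 across genotypes (adjusted p = 0.106).

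Among the effector genes, Acp5 measured 4.83 and 9.71 CPM in mutant oxLDL cells, against 17.1 and 43.9 CPM in mutant untreated cells. Wild-type cells had 6.01 CPM with oxLDL and 44.8 CPM without. The 3 oxLDL libraries lay below the 3 untreated ones, although the mutant untreated pair itself was wide apart. The log2 fold change was -2.09 ± 0.51 in the mutant (edgeR adjusted p = 0.0248) and -2.35 ± 0.43 across genotypes (adjusted p = 0.00636). Without mutant untreated replicate 2, the higher of that pair, the mutant value was -1.24 and did not pass (adjusted p = 0.102).

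Mmp9 was likewise lower in all 3 oxLDL libraries, at low counts of 7 to 80 a library. It measured 0.284 and 0.693 CPM in mutant oxLDL cells, against 1.41 and 4.53 CPM in mutant untreated cells, and 1.21 CPM with oxLDL against 4.09 CPM without in wild type. The oxLDL and untreated libraries did not overlap, but wild-type oxLDL and mutant untreated replicate 1 lay close together. The log2 fold change was -2.64 ± 0.71 in the mutant (edgeR adjusted p = 0.0329) and -2.30 ± 0.56 across genotypes (adjusted p = 0.0185). Both calls ended without mutant oxLDL replicate 1 (adjusted p = 0.0602 in the mutant, 0.0536 across genotypes) and without mutant untreated replicate 2 (0.194 with a log2 fold change of -1.54, and 0.0607). Mmp9 is also a neutrophil granule gene: 11 neutrophil markers summed to 12.5 and 6.29 CPM in mutant oxLDL, 14.0 and 12.2 in mutant untreated, 7.41 in wild-type oxLDL and 48.1 CPM in wild-type untreated cells. Most of the sum was Mmp8 in the other libraries, and Retnlg was at 0 in all but wild-type untreated cells. Each of the 11 markers had at least 1 count in that library, and 5 to 8 were at 0 in each of the others; the part of neutrophil RNA in the Mmp9 levels was not tested.

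Tnfrsf11a, Acp5 and Mmp9 were the 3 of 7 tested genes whose oxLDL libraries all lay below the untreated ones, which was so for 23.3% of all genes tested.

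Ctsk did not fall with the other effector genes. It measured 17.9 and 12.0 CPM in mutant oxLDL cells, against 14.0 and 7.57 CPM in mutant untreated cells, a log2 fold change of 0.48 ± 0.34 (edgeR adjusted p = 0.312). In wild type it measured 9.65 CPM with oxLDL and 1.84 CPM without, from 151 and 36 counts. The mutant ranges overlapped, whereas wild-type untreated cells stood apart as the lowest library. Across genotypes the log2 fold change was 1.01 ± 0.44 (adjusted p = 0.111). It passed without mutant untreated replicate 1 (1.52; adjusted p = 0.0315) and with no filter on low counts (adjusted p = 0.0301).

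Spp1, the osteopontin gene, measured 2781 and 1138 CPM in mutant oxLDL cells, against 2015 and 1325 CPM in mutant untreated cells. In wild type the values were 2522 CPM with oxLDL and 506 CPM without. As for Ctsk, the mutant groups overlapped and wild-type untreated cells were lowest. The log2 fold change was 0.23 ± 0.43 in the mutant (edgeR adjusted p = 0.710), with a change of sign (-0.55) without mutant oxLDL replicate 1 and (-0.04) without mutant untreated replicate 2. Across genotypes it was 0.90 ± 0.54 (adjusted p = 0.228), and it passed without mutant oxLDL replicate 2 (1.44; adjusted p = 0.0415). Of its sequence, 8.55% is shared with other gene models, the highest share of the 9 genes. Spp1 is also made by bone-forming and stromal cells, whose 14 markers summed to 12.5 to 16.8 CPM over the 6 libraries; the osteoblast genes Sp7 and Ibsp had 0 counts in all 6, and Runx2 made up most of the sum.

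The fusion genes were scarce. Dcstamp measured 0.365 and 0.149 CPM in mutant oxLDL cells, from 9 and 3 counts, against 1.06 and 0.991 CPM in mutant untreated cells, from 12 and 14 counts. Wild-type cells had 0.0639 CPM with oxLDL and 0.205 CPM without, from 1 and 4 counts. Within each genotype the oxLDL libraries were lower, but mutant oxLDL replicate 1 lay above wild-type untreated cells. Within the mutant the change of -1.93 ± 0.65 (log2) did not pass (edgeR adjusted p = 0.0656), and that of -1.88 ± 0.55 across genotypes did (adjusted p = 0.0353). The call across genotypes ended when any 1 library was left out, with log2 fold changes of -2.42 to -1.48. Where that library was wild type, the fit is the mutant comparison itself. The call also ended with no filter on low counts (edgeR adjusted p = 0.0664) and with DESeq2 (adjusted p = 0.0677). Dcstamp is also expressed by dendritic cells, whose 10 markers summed to 2.31 and 2.97 CPM in mutant oxLDL, 20.2 and 25.8 in mutant untreated, 2.05 in wild-type oxLDL and 8.23 CPM in wild-type untreated cells. Cd207 made up most of the sum in the mutant untreated libraries, Flt3 was at 0 in all but mutant untreated replicate 2 and Cd209a in all but mutant untreated replicate 1. Between 2 and 5 of the 10 were at 0 in each library; their part in the Dcstamp levels was not tested.

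Ocstamp had 0 counts in all 3 oxLDL libraries, against 4 and 3 counts in mutant untreated and 3 counts in wild-type untreated cells. Pooled over the 3 libraries of each treatment, its level was at least 4.48-fold lower with oxLDL, set against a floor of 3 counts over the oxLDL libraries and with the 10 untreated counts taken as measured. The exact Poisson intervals (95%) are 0 to 3.69 counts with oxLDL and 4.80 to 18.4 without, so counting error alone allows a smaller fold than that. Every library lay close to the limit of detection.

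**Figure D2:**
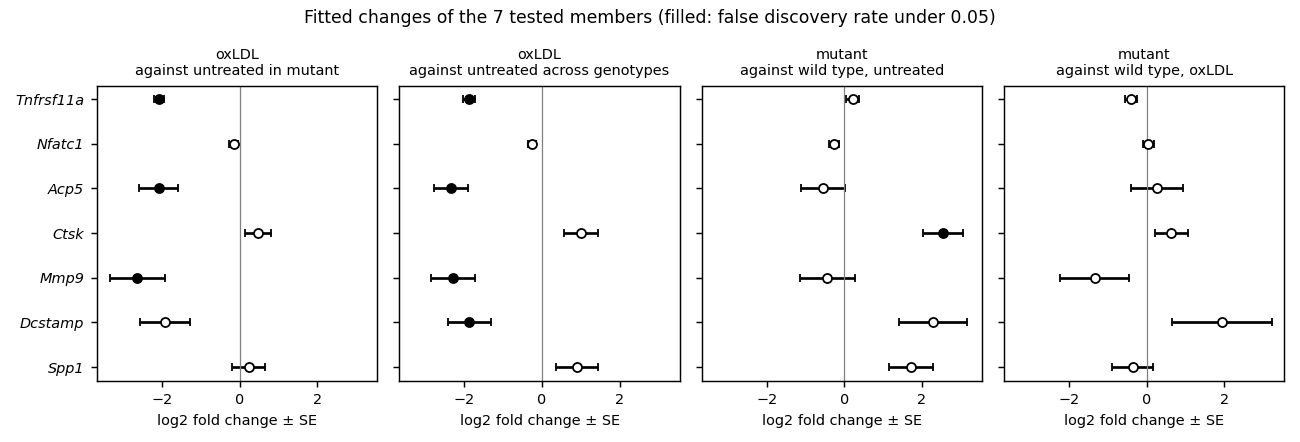
Log2 fold change (horizontal axis) of the 7 tested genes in 4 comparisons, with bars of 1 approximate SE and filled points for a false discovery rate under 0.05. With oxLDL, Tnfrsf11a, Acp5 and Mmp9 lie near -2 or below in both left panels; in untreated cells, Ctsk alone is filled among the differences between mutant and wild type.

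In wild type the same question rests on 1 library against 1, with no replicate check. Among the 6 members that reached 1 CPM in one or both libraries, Acp5 was 7.45-fold, Mmp9 3.37-fold and Tnfrsf11a 2.75-fold lower with oxLDL, and Ctsk was 5.24-fold and Spp1 4.99-fold higher. That is 3 of 6 lower and 2 of 6 higher by at least 2-fold, against 13.1% and 9.46% of 11474 genes. Nfatc1 was 1.38-fold lower. Where the spread of the mutant pairs was borrowed for these single libraries, Tnfrsf11a and Acp5 passed as lower (edgeR adjusted p = 0.0047 and 0.0415) and Ctsk and Spp1 as higher (0.0292 and 0.0488), against 12.8% of all genes lower and 10.4% higher. Nfatc1 (0.0939), Mmp9 (0.224) and Dcstamp (0.499) did not pass.

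The mutant and wild-type responses pointed the same way for the falling genes, while for Ctsk and Spp1 the mean ratios of oxLDL to untreated cells were 1.38 and 1.17 in the mutant, against 5.24 and 4.99 in wild type. The difference of responses itself, tested as an interaction, was -1.90 ± 0.65 for Ctsk (log2 scale; edgeR adjusted p = 0.385) and -2.09 ± 0.75 for Spp1 (adjusted p = 0.411), so neither passed. For Tnfrsf11a it was -0.62 ± 0.23 (adjusted p = 0.418). No member was called, where 0.489% of all genes were; 3 of 7 had an unadjusted p under 0.05, against 11% of all genes, and DESeq2 also called none. The Spp1 interaction passed with a replicate block (-2.19, edgeR adjusted p = 0.0387). Such a block assumes that same-numbered mutant libraries pair, and it leaves very little to measure the spread by. The Spp1 interaction also passed without mutant oxLDL replicate 1 (-2.87), a fit with 1 library in each oxLDL group. With no filter on low counts the interactions of both genes passed (adjusted p = 0.0105 for Ctsk and 0.00198 for Spp1). Mutant oxLDL and wild-type untreated cells, the groups with pancreatic transcripts, stand on the same side of this interaction. With the pancreatic genes left out, again none of the 7 was called. Leaving those genes out does not change the members' own counts, so it cannot show what such RNA contributed. The part of such RNA in the members' levels was not tested.

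The second comparison set mutant against wild-type cells. Ctsk was higher in untreated mutant than in untreated wild-type cells, at 14.0 and 7.57 CPM against 1.84 CPM, a fitted 5.81-fold difference (log2 fold change 2.54 ± 0.51; edgeR adjusted p = 0.0444). It was the only call among the 7 genes in untreated cells, where 4.24% of all genes were called higher, and it ended without mutant untreated replicate 1 (2.02; adjusted p = 0.104). Spp1 in the same cells had 2015 and 1325 CPM in the mutant libraries, against 506 CPM in the wild-type one. The difference of 1.72 ± 0.57 on the log2 scale failed the test (edgeR adjusted p = 0.123), yet passed it without mutant oxLDL replicate 1 (0.00671), without mutant oxLDL replicate 2 (0.0126) and with no filter on low counts (0.000155). The wild-type untreated library, the only one of its group, also had the highest summed pancreatic (253 CPM) and neutrophil (48.1 CPM) marker levels of the 6, and their part in the Ctsk and Spp1 differences was not tested. These comparisons share their mutant untreated libraries with the oxLDL comparison in the mutant, and so are not independent of it. Both also rest on the wild-type untreated library, which had the lowest Ctsk and Spp1 levels. That library enters the wild-type oxLDL comparison and the interaction as well. The Ctsk and Spp1 results there are therefore not independent of these.

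After oxLDL the genotypes lay closer for Ctsk, with 17.9 and 12.0 CPM in the mutant beside 9.65 CPM in the wild-type library, a log2 fold change of 0.63 ± 0.42 (edgeR adjusted p = 0.545). Spp1 was at 2781 and 1138 CPM in mutant cells, on either side of 2522 CPM in wild type. Tnfrsf11a was at 60.0 and 46.8 CPM in mutant against 70.6 CPM in wild-type cells, or -0.40 ± 0.16 on the log2 scale (adjusted p = 0.345). None of the 7 genes was called among oxLDL-treated cells, against 0.481% of all genes; Tnfrsf11a alone had an unadjusted p under 0.05 (0.0488), against 14.3% of all genes, and DESeq2 also called none.

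Across both treatments none of the 7 genes was called between genotypes, against 4.05% of all genes. Dcstamp had a log2 fold change of 2.18 ± 0.67 (edgeR adjusted p = 0.118) and Ctsk of 1.39 ± 0.49 (adjusted p = 0.151), and these 2 were the members with an unadjusted p under 0.05, against 24.4% of all genes. DESeq2 called Ctsk (adjusted p = 0.0302), as did the fit with no filter on low counts (0.0341). Ctsk and Dcstamp were also the 2 of 7 genes with both mutant libraries above wild type in untreated and again in oxLDL-treated cells, which held for 21.8% of all genes. Nfatc1 (-0.12 ± 0.12), Tnfrsf11a (-0.10 ± 0.17), Acp5 (-0.20 ± 0.44), Mmp9 (-0.82 ± 0.57) and Spp1 (0.55 ± 0.58) had adjusted p of 0.424 to 0.816.

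The order of the groups differed between the genes. For Tnfrsf11a the means ran 53.4 CPM in mutant oxLDL, 70.6 in wild-type oxLDL, 195 in wild-type untreated and 226 CPM in mutant untreated cells, and the neighbours within a treatment did not pass the test (edgeR adjusted p = 0.345 with oxLDL and 0.442 without). For Ctsk the order was 1.84 CPM in wild-type untreated, 9.65 in wild-type oxLDL, 10.8 in mutant untreated and the highest mean in mutant oxLDL cells (17.9 and 12.0 CPM), and only the lowest group stood outside the spread of the others. Spp1 shared the lowest group with Ctsk, and the range of its mutant oxLDL libraries took in the values of mutant untreated and wild-type oxLDL cells.

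Promoter sequences are shown for Tnfrsf11a and Acp5, which fell together with oxLDL, and for Ctsk and Spp1, which shared their lowest group. They are the 250 bases before the annotated start, 5′ to 3′, from the RefSeq table of build GRCm38.p6, which held 8 starts of 5 of the 9 genes; Mmp9, Dcstamp, Ocstamp and Nfatc1 were not matched. Capitals mark GGAAA (the core of NFAT sites), AGGAAG (of PU.1 sites), TGANTCA (AP-1), CACGTG and CATGTG (E-boxes), searched on both strands; no matches overlapped in the sequences shown. The first is chr1:105780473-105780722 (plus strand), the second chr9:22135747-22135996 (minus strand, the first of 3 starts), the third chr3:95498960-95499209 (plus) and the last chr5:104434861-104435110 (plus, the first of 2 starts).
Tnfrsf11a: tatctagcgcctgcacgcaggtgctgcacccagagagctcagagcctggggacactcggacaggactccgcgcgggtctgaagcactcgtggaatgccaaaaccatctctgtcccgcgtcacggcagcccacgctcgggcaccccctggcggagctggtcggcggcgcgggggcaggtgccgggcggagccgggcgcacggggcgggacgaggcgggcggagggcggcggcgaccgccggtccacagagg
Acp5: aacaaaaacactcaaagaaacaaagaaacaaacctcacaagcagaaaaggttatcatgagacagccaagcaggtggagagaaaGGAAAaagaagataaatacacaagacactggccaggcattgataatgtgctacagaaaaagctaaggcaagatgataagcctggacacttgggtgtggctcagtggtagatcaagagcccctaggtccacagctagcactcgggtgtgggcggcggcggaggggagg
Ctsk: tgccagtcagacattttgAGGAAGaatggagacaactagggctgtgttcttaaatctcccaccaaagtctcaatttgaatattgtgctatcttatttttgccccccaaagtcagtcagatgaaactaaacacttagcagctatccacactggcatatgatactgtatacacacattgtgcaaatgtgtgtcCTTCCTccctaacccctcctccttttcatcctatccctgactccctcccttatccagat
Spp1: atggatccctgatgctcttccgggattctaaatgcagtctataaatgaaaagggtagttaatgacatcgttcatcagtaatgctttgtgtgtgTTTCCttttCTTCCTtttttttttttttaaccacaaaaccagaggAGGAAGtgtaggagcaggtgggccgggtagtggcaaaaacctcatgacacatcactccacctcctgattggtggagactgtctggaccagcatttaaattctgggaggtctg

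The Tnfrsf11a window held none of the 5 motifs, and the Acp5 window 1 GGAAA. The Ctsk window held 2 AGGAAG, and the Spp1 window 2 AGGAAG and 1 GGAAA. Over all 8 starts GGAAA was found in 6, against 55.6% of all 32851 promoter windows of the same length, and AGGAAG in 4, against 29.5%. CATGTG was found in 2 of 8 (12.3% of all), and TGANTCA and CACGTG in none (6.75% and 6.02%). A match describes the letters only and is not a measured binding site.

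The other genes of the pathway were described from 4 lists. In mutant cells 14 of 32 tested genes of osteoclast commitment and signalling fell with oxLDL (43.8%) and 5 rose (15.6%), against 19.1% and 16.5% of all genes tested. The median log2 fold change was -0.27, against 0.01 over all genes. Fos, a partner of NFATc1 in the AP-1 complex, measured 9.49 and 9.61 CPM with oxLDL and 167 and 201 CPM without, a 19.3-fold decrease (edgeR adjusted p = 0.000168). In mutant cells Nfkb2 and Nfkb1, NF-kB subunit genes downstream of RANK, fell 3.62-fold and 1.92-fold. The adaptor gene Blnk fell 2.97-fold there and Csf1r, the receptor of macrophage colony-stimulating factor, 2.71-fold. Jun rose 1.24-fold. Without mutant untreated replicate 2 fewer genes of this list passed, and so did fewer of all genes tested.

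Of 16 tested genes listed for restraint of osteoclast formation, 9 fell with oxLDL in the mutant (56.2%, against 19.1% of all genes). Another 2 rose (12.5%, against 16.5%), and the median log2 fold change was -0.56. The direction in which each listed gene acts was not tested. Across genotypes 6 fell (37.5%, against 21.4% of all genes) and 2 rose (12.5%, against 19.1%). In mutant cells Nfkbia, the inhibitor of NF-kB, fell 5.77-fold, the phosphatase gene Dusp1 2.30-fold, the interferon gamma receptor gene Ifngr1 2.09-fold, Tnfaip3 (A20) 1.89-fold and the repressor gene Bcl6 1.80-fold. Dusp1 measured 13.4 and 14.7 CPM in mutant oxLDL against 32.5 and 32.1 CPM in mutant untreated cells, but 33.1 CPM with oxLDL against 16.7 CPM without in wild type, and across genotypes it did not pass (log2 fold change -0.49; edgeR adjusted p = 0.407). Without mutant untreated replicate 2 fewer genes of this list passed as lower, as did fewer of all genes tested.

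Of 31 tested genes listed for the resorption machinery, 13 rose with oxLDL in the mutant (41.9%, against 16.5% of all genes). Another 8 fell (25.8%, against 19.1%), and the median log2 fold change was 0.39. The proton pump subunit genes Atp6v1c1 and Atp6v1h rose 2.59-fold and 1.93-fold. Atp6v0d2, a pump subunit also needed for fusion, was singled out after its values were seen: it measured 261 and 154 CPM in mutant oxLDL against 59.8 and 34.5 CPM in mutant untreated cells, and 148 against 15.3 CPM in wild type, and its log2 fold change was 2.14 ± 0.34 within mutant cells (edgeR adjusted p = 0.00584). On the lower side, the membrane metalloprotease gene Mmp14 fell 3.98-fold, the creatine kinase gene Ckb 2.43-fold (5.82% of its sequence is shared with other genes) and the lysosomal acid phosphatase gene Acp2 2.09-fold. Many of these genes also serve lysosomes in macrophages. Calcr, the calcitonin receptor gene of mature osteoclasts, had 0 counts in all 6 libraries, Siglec15 had 3 counts over the 6, and Car2, the carbonic anhydrase gene, 18; these 3 were also singled out after their values were seen.

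Of 33 tested genes of macrophage fusion, 16 fell with oxLDL in the mutant (48.5%, against 19.1% of all genes) and 8 rose (24.2%, against 16.5%), with a median log2 fold change of -0.37. Tnf fell 7.97-fold, the potassium channel gene Kcnn4 2.43-fold, the Rac activator gene Elmo1 2.03-fold and Il4ra, a receptor subunit for the fusion-inducing cytokine interleukin-4, 1.79-fold. Mmp12 (macrophage elastase) rose 4.83-fold and Cd200r1 1.83-fold. Cd81, a tetraspanin gene, had a log2 fold change of -0.13 ± 0.11 (edgeR adjusted p = 0.415).

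**Figure D3:**
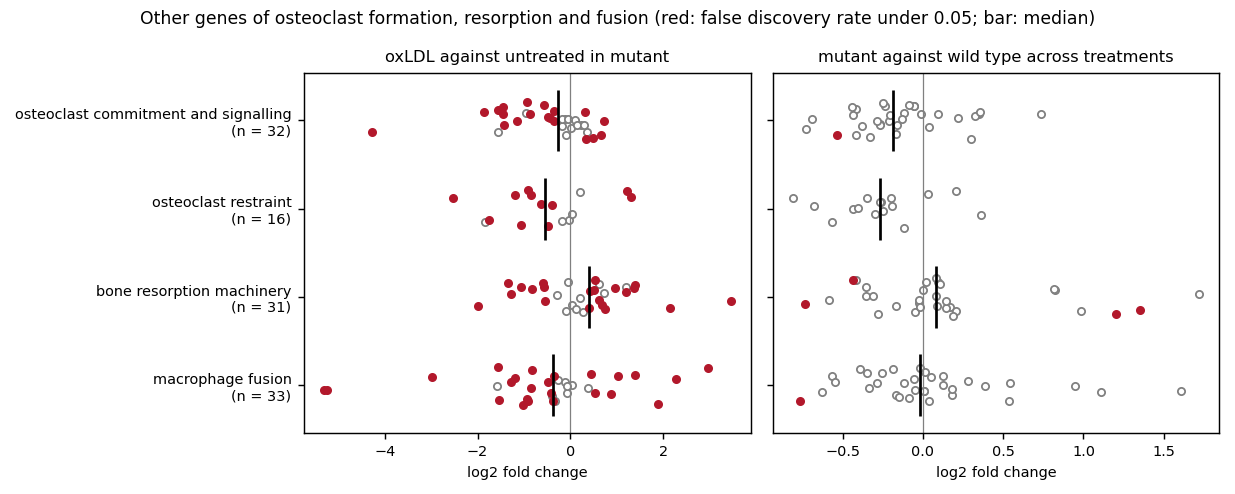
Log2 fold change (horizontal axis) of each tested gene of the 4 pathway lists, for oxLDL in the mutant (left) and mutant against wild type across treatments (right; the axes differ in range). Red points passed a false discovery rate of 0.05, open points did not, and black bars are list medians, which lie at -0.27, -0.56, 0.39 and -0.37 from top to bottom on the left.

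Between genotypes 1 of 32 genes of the commitment list, 0 of 16 of the restraint list, 4 of 31 of the resorption list and 1 of 33 of the fusion list passed across treatments, against 4.05% of all genes. Mmp14 was higher in the mutant, at 90.3 and 64.1 CPM in mutant oxLDL against 33.3 CPM in wild-type oxLDL cells and 329.9 and 285 CPM in mutant untreated against 135 CPM in wild-type untreated cells (a fitted 2.30-fold difference, with an SE of 0.16 on the log2 scale; edgeR adjusted p = 0.0244). Ckb was lower in the mutant (-0.74 ± 0.11; adjusted p = 0.0322), as were Cd81 (-0.77 ± 0.11; 0.0315) and Blnk (-0.54 ± 0.11; 0.0480). Jun (-0.42 ± 0.09; 0.0546), Bcl6 (-0.44 ± 0.10; 0.0685) and Elmo1 (-0.55 ± 0.13; 0.0692) did not pass. Without mutant untreated replicate 1 or 2 the commitment, resorption and fusion lists had 0 calls each. In those 2 settings only 35 of 12718 and 8 of 12675 genes were called. DESeq2 gave 6, 5, 7 and 4 calls in the 4 lists, in the same order, where it called 1513 of all 12689 genes.

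The genes closest in profile were found by the root mean square difference of centred log2 CPM over the 6 libraries, among 9694 other genes with a mean of at least 5 CPM. Closest to Tnfrsf11a were Ube2l6 (difference 0.09) and Zfp36 (0.13), and closest to Acp5 were Ctsc (0.31) and Fam72a (0.34). Closest to Ctsk were Tmem144 (0.20) and Mamld1 (0.22), to Spp1 Sox7 (0.24) and Layn (0.26), and to Nfatc1 Rps9 (0.04; 6.80% shared sequence) and Ddx42 (0.04). Among the 5 members with a mean of at least 5 CPM, the nearest pair was Ctsk and Spp1 (0.51), with 67 other genes nearer to Ctsk and 70 nearer to Spp1 than this. Acp5 and Tnfrsf11a differed by 0.70, with 318 other genes nearer to Acp5 and 1250 nearer to Tnfrsf11a.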

How the data were processed

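For 6 libraries of polyadenylated RNA, the authors deposited expected counts of each gene (RSEM) and a TMM-scaled signal (CPM times a scaling factor). Bowtie2 2.1.0, RSEM 1.2.15 and edgeR are named in the submitters' processing notes, which also name the build hg19 although the gene symbols are mouse, so the build behind the counts is uncertain and no position from it is printed. No source used here states whether counting used strand. The deposited signal stepped in whole reads for 100% of values (tolerance 0.01 reads), and 99.89% or more of the genes of every library had recovered reads equal to the rounded counts.

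Expected counts were rounded and tested with edgeR 4.0.16 under R 4.3.3 (quasi-likelihood F-test, filterByExpr, TMM, Benjamini-Hochberg adjustment over all 12689 genes tested). Contrasts within a genotype or treatment and the interaction came from a model with 4 groups; an additive model gave oxLDL across genotypes and genotype across treatments. In the model with 4 groups the spread of the lone wild-type libraries is taken from the mutant pairs. In the additive model the spread also takes in any difference of oxLDL response between genotypes. SE is the log2 fold change divided by the square root of F. The method was tested on simulated data with a single fixed spread, no genotype effect and changes only in genes above a mean of 5 CPM. That run scored neither the comparisons within a treatment nor the interaction. It therefore does not check those results, nor the calls of scarce genes such as Mmp9 and Dcstamp. Members and lists were chosen with earlier results of these data known. Named genes were the members, the 5 genes of each list with the smallest p for oxLDL in the mutant and the 2 for genotype across treatments, and the 2 nearest profiles; 1 gene named by this rule is not reported here. Lists were matched by symbol, 34 of 34, 19 of 20, 34 of 34 and 35 of 36 genes being in the table. Shared sequence was the percentage of 75-base stretches found in other GENCODE genes. Alternatives were DESeq2 1.42.0, its size factors, no filter, pancreatic genes left out, a replicate block, each library left out and, added after seeing the data, the recovered reads.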

Additional observations from a re-analysis of the deposited data

How the results depend on the processing

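Of 455 values of single members under alternatives, 414 kept their direction and their side of the threshold. Of the others, 13 came to pass it, 14 ceased to pass it and 14 changed sign, all of the last on leaving out a library. Many of the 455 could hardly move, so the 414 do not measure stability. Recovered reads nearly equal the rounded counts, and leaving out pancreatic genes does not change the members' counts. Leaving out a wild-type library does not change the mutant libraries compared for oxLDL in the mutant. Counts of calls are given for the members and then for all genes tested, 7 and 12689 unless stated. With no filter on low counts, which tested 9 members and 17143 genes, members called and all genes called were 1 (against 0) and 1387 (against 514) for mutant against wild type across treatments, 2 (against 1) and 2435 (against 896) in untreated cells, and 2 (against 0) and 546 (against 62) for the interaction, with 974 genes (against 61) between genotypes after oxLDL. With DESeq2 they were 1 and 1513 across treatments, and all genes numbered 391 after oxLDL and 221 for the interaction. With pancreatic genes left out (12675 genes tested), all genes numbered 36 after oxLDL and 37 for the interaction.

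Leaving out each library in turn (12483 to 12786 genes tested) gave 1 to 3 members and 2626 to 4529 genes (against 4515) for oxLDL in the mutant, and 2 to 4 members across genotypes. Between genotypes it gave 0 to 1 members and 8 to 877 genes across treatments, 0 to 2 members and 80 to 1822 genes in untreated cells, and 5 to 473 genes after oxLDL. For the interaction it gave 0 to 1 members and 19 to 246 genes. The members called for oxLDL across genotypes were not always the same, nor all lower. They took in Spp1 as higher without mutant oxLDL replicate 2 (log2 fold change 1.44). They took in Ctsk as higher without mutant untreated replicate 1 (1.52). The log2 fold change of Spp1 with oxLDL in the mutant ran over -0.554 to 0.741. Between genotypes across treatments the ranges were -0.545 to 0.269 for Acp5, -0.271 to 0.0474 for Nfatc1, -0.397 to 0.215 for Tnfrsf11a and -0.357 to 1.72 for Spp1. In untreated cells Mmp9 ran over -1.53 to 0.132, and after oxLDL Acp5 over -0.307 to 0.692, Nfatc1 over -0.0134 to 0.103 and Spp1 over -1.15 to 0.149. The interaction ran over -1.64 to 0.209 for Mmp9 and -1.16 to 0.103 for Dcstamp. Without a lone wild-type library only the other treatment is left to compare genotypes, and only the mutant to compare treatments. The ends of the 4 ranges across treatments, and its 877 genes and 1 member, are therefore the untreated or the oxLDL comparison by construction and do not bear on stability. Without mutant libraries alone, all genes called across treatments ran from 8 to 724. The cause of the other shifts was not tested.

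Same-numbered mutant libraries deviated together (correlation 0.317 over 9699 genes), but with 2 pairs the number alone does not pair them. With a replicate block the interaction called 1 member (Spp1, -2.19, edgeR adjusted p = 0.0387) and 162 genes, and oxLDL in the mutant again called 3 members. The block leaves very little to measure the spread by. Ocstamp, Oscar, Dcstamp and Mmp9 are limited by depth: they had at most 80 counts in any library.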
